A study of Mus musculus with 20 samples.

Results

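The livers of 20 mouse samples were divided into 10 with a high and 10 with a low clock score, where the score of a liver was its Dbp level minus its Arntl level. All 20 livers of the series entered the split. A level is the log2 of the array's processed signal minus that array's 75th percentile, so 1 unit is a doubling. The arrays came in 2 slide series of 10, and within each the 5 livers of highest score formed the high and the 5 of lowest score the low livers. High and low livers were thus chosen by measured values, the levels of Dbp and Arntl, and these 2 genes are described with no test.

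Each sample was the liver of a male mouse of the inbred strain C57BL/6J that had eaten feed with 60% of calories as fat since weaning and was 6 weeks old. By label, 10 livers are of responders, susceptible to obesity on the diet, and 10 of non-responders, resistant to it. Samples are named R and NR with the number of their title. There was no group on another diet and none of another strain, and the hour of sampling and the feeding state before it are not given in the sources used here. The labels do not tie samples to animals, so a p-value measures the spread between these samples.

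The mammalian clock is a feedback loop of transcription. ARNTL (BMAL1) and CLOCK bind E-boxes and switch on the Per, Cry and Nr1d genes, whose proteins close the loop: PER and CRY repress ARNTL and CLOCK, and the NR1D proteins (REV-ERB) repress Arntl through elements that ROR proteins activate. Dbp, Tef and Hlf encode PAR bZIP activators that are switched on through E-boxes and act on D-boxes, where NFIL3 (E4BP4) competes as a repressor. In liver, Dbp and Arntl are known to peak at nearly opposite times of day, and feeding time can shift the liver clock.

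These elements can be read in promoter windows of RefSeq (build GRCm38.p6), which run from 250 bases before to 50 bases after a start site. The 4 windows below hold 1 kind of element each and belong to a gene that was high with Dbp (Ciart, Per3), one that was low (Nfil3), and the score gene Arntl. Capitals mark an E-box (CACGTG, its own reverse complement), a D-box (TTATGTAA or TTACGTAA) or a ROR element (TAGGTCA or TGGGTCA), searched on both strands and found with no overlap between kinds. Ciart, at chr3:95882179-95882478 on the minus strand, held 3 E-boxes, which began 116, 58 and 44 bases before the start. Per3, at chr4:151044616-151044915 on the minus strand, held 2 D-boxes, 205 and 158 bases before it. Nfil3, at chr13:52980990-52981289 on the minus strand, held 1 ROR element on the opposite strand, 12 bases before it. The second of 2 Arntl windows, at chr7:113207261-113207560 on the plus strand, held 1 ROR element 30 bases after its start.
Ciart: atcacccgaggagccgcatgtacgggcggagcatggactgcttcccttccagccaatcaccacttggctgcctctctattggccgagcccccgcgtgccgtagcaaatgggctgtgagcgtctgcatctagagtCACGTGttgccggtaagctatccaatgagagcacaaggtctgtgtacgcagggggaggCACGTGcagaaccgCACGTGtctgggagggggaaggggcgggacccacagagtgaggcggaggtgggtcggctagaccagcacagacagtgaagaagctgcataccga
Per3: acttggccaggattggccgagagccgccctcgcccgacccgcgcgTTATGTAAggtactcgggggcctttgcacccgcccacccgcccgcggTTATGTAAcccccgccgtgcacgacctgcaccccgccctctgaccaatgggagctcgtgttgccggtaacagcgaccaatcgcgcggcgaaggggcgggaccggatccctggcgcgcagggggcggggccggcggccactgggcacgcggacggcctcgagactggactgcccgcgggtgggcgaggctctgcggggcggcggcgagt
Nfil3: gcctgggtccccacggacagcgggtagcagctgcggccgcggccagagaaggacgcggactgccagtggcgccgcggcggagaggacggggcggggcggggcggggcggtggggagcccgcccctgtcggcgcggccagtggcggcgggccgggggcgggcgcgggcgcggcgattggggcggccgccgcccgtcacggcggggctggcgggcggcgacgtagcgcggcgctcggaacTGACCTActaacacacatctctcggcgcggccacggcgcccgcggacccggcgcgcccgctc
Arntl: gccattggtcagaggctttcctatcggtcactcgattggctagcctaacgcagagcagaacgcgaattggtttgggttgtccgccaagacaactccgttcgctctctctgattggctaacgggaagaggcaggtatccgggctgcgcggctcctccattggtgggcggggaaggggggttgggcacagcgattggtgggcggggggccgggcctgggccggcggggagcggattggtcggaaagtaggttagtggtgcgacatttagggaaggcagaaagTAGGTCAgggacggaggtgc

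Of 32851 promoter windows in the table, 7.15% held such an E-box, 1.06% such a D-box and 6.45% such a ROR element. Among the genes driven from E-boxes 10 had a window, and 4 of these (Ciart, Per1, Tef and Bhlhe41) held an E-box. Of the 5 genes with a window on the list of clock genes described as targets of ROR and REV-ERB proteins, Arntl and Nfil3 held the element. Clock and Npas2 held none, and Cry1 held an E-box instead. A match in a window is a description of its letters.

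In the first slide series the high livers had scores of 8.76 (R_1), 6.80 (NR_4), 6.76 (R_2), 5.79 (NR_2) and 5.63 (NR_3). The low livers of that series had scores of 5.29 (NR_1), 4.99 (R_10), 1.10 (R_3), 1.03 (NR_6) and 0.48 (NR_5). The low livers thus fell apart into a pair just under the boundary and a trio far below it. In the second slide series the high livers had scores of 8.64 (NR_7), 8.43 (NR_10), 8.14 (NR_9), 7.78 (R_8) and 7.42 (R_9). Its low livers had scores of 6.62 (R_5), 4.29 (R_6), 3.14 (R_7), 2.53 (R_4) and -0.96 (NR_8). The boundary lay between 5.63 and 5.29 in the first series and between 7.42 and 6.62 in the second, so the low liver R_5 had a higher score than the high livers NR_2 and NR_3 of the other series. High livers were close to each other (mean score 7.41 ± 1.14, SD, n = 10), and low livers were spread more widely (2.85 ± 2.44, SD, n = 10).

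Dbp, the PAR bZIP activator, had a level of 4.94 to 6.63 in high livers with a median of 6.00. Its level in low livers ran from 0.90 to 5.69 with a median of 3.57. Arntl, the activator at the head of the loop, ran from -2.53 to -0.69 in high livers with a median of -1.60. It ran from -0.93 to 1.86 in low livers with a median of 0.74. The 2 genes moved in opposite directions along the score, and each overlapped between high and low livers when the series were pooled. Each was measured by 1 probe.

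**Figure D1:**
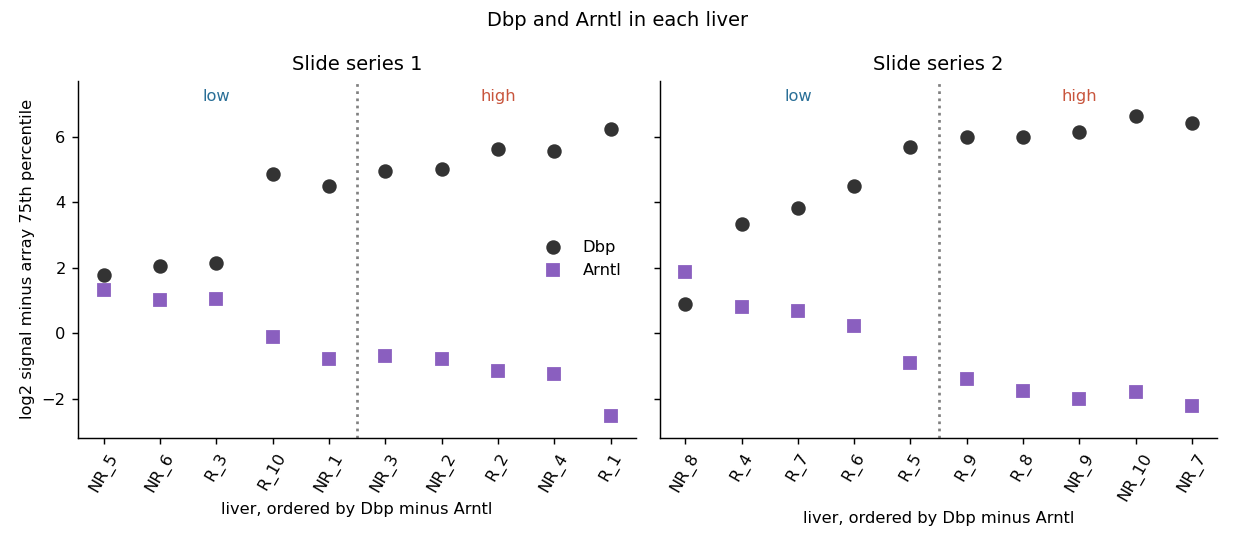
Level of Dbp (circles) and Arntl (squares), as log2 signal minus the array's 75th percentile, in each liver, ordered by score within each slide series; the dotted line is the boundary between low and high. Dbp ran from 0.90 to 6.63 and Arntl from -2.53 to 1.86, and NR_8 was the liver in which Arntl had the higher value.

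No difference between arrays of high and low livers was detected in their technical measures. The 75th percentile of signal was 280.1 to 657 in high and 282 to 621 in low livers (p = 0.829, exact two-sided permutation within slide series), and the share of spots well above background was 55.8% to 71.2% and 57.0% to 68.6% (p = 0.931, the same exact permutation). The number of arrays limits the precision. All livers carried the hepatocyte program, with a summed signal of the 11 hepatocyte markers measured between 11.43 and 12.16 on the log2 scale. Slide series accounted for 42.7% of the first principal component, which held 35.8% of the variance, and the score for 3.4% of it. The score accounted for 46.4% of the fourth component, which held 6.3% of the variance.

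The comparison asks which other genes go with the clock score across livers of 1 strain, diet and age. High and low livers were fitted over 17192 genes and unnamed probes with slide series as a term. At an adjusted p under 0.05, 3 genes differed, 0.0174% of those tested: Ccne1 was higher in high livers (0.00582%), and Arhgef19 and D18Ertd232e were lower (0.0116%). At an unadjusted p under 0.05 there were 1691 genes, 697 higher and 994 lower in high livers, and the median difference over all genes was 0.0042. A split in the middle sets livers of nearly equal score on opposite sides. The score itself as a slope, an alternative that uses its whole range, called 337 genes (1.96%), of which 129 rose and 208 fell with the score. The 3 genes called by the split were among them, and all 337 had the same sign in the split. Split and slope rest on the same score and the same livers, so this agreement is no separate support. A slope is given per unit of score, that is, per doubling of Dbp over Arntl.

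Ccne1 encodes cyclin E1, which drives entry into S phase. It ran from -0.15 to 0.48 in high livers with a median of 0.11, and from -1.50 to 0.14 in low livers with a median of -0.85. A single low liver, R_5, reached the high range. Ccne1 was 1.84-fold higher in high livers (log2 difference 0.88, SE 0.13, adjusted p = 0.0222), and the difference was 0.89 in the first and 0.87 in the second slide series. Arhgef19, a guanine nucleotide exchange factor for small GTPases, ran from 0.15 to 0.57 in high livers and from 0.56 to 1.16 in low livers. The 2 ranges met at a single pair, NR_3 (0.57) and NR_1 (0.56). It was 1.40-fold higher in low livers (log2 difference -0.48, SE 0.07, adjusted p = 0.0222), and its slope missed the threshold without NR_8 (adjusted p = 0.0568). D18Ertd232e, which carries a clone name and stands outside the naming rule, ran from -2.83 to -1.07 in high and from -1.44 to 0.51 in low livers (log2 difference -1.36, SE 0.22, adjusted p = 0.0372). The number of genes called by the split rested on single livers: it was 65 without R_10, 25 without R_5, 21 without NR_1, 10 without NR_3, 9 without R_6, 6 without R_2, 1 without R_7 and 0 without any one of R_1, R_4, R_9, NR_4, NR_5, NR_8, NR_9 or NR_10. It was 53 without the 4 livers next to the boundary, whereas the count by slope was 140 without NR_8, 163 without NR_6, 207 without NR_5, and 233 or more without any other liver.

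The genes driven from E-boxes were higher in high livers, as Dbp was. Of 12 on the list 11 remain beside Dbp, and 10 of these were measured. All 10 had a positive difference, against 51.3% of all genes (median 0.91, against 0.0042 over all genes). None passed the split at an adjusted p under 0.05, and 6 rose with the score as a slope (60.0%). Of all genes 1.96% passed as a slope in either direction. Bhlhe41 was well above background on 5 arrays and did not pass the filter on dim probes, which needed at least 5 arrays of 1 label group.

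Ciart (CHRONO), a repressor of ARNTL and CLOCK, had the largest difference of the list. It ran from -1.89 to 0.74 in high livers with a median of -0.87, and from -7.52 to 0.15 in low livers with a median of -4.33. In the low livers NR_1 (-0.14), R_5 (0.15) and R_6 (-0.54) it lay within the high range, and in the other 7 it was -4.21 or lower. The signal was well above background in all 10 high and in 7 of the 10 low livers. Its log2 difference of 3.27 (SE 0.93, adjusted p = 0.198) was thus set partly against background signal, and it rose by 0.75 per unit of score (SE 0.12, adjusted p = 0.00139).

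Among the period genes, whose proteins repress ARNTL and CLOCK, Per3 stood furthest apart. Per3 ran from -3.22 to -1.30 in high livers and from -7.40 to -1.60 in low livers, where NR_8 was lowest and 7 of 10 arrays were well above background. Its difference was 1.89 (SE 0.59, adjusted p = 0.261) and its slope 0.49 per unit (SE 0.06, adjusted p = 1.5e-04). Per2 ran from -1.69 to -0.31 in high and from -3.21 to 0.08 in low livers, with a slope of 0.25 (SE 0.05, adjusted p = 0.00933). Per1, which also answers to glucocorticoids, lay between -0.41 and 1.04 in high livers. In low livers it was either 0.24 or higher (NR_1, NR_5, NR_6, R_5 and R_6) or -1.72 or lower (R_3, R_4, R_7, R_10 and NR_8). Its difference of 1.45 (SE 0.62, adjusted p = 0.428) and its slope of 0.29 (SE 0.10, adjusted p = 0.168) did not pass.

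Nr1d2 (REV-ERB beta) had the steadiest relation to the score of the list. It ran from 1.25 to 2.07 in high and from 0.09 to 1.62 in low livers, and rose by 0.17 per unit (SE 0.02, adjusted p = 2.0e-05). Nr1d1 (REV-ERB alpha), the better known repressor of Arntl, ran from -1.53 to 1.53 in high and from -2.74 to 1.19 in low livers. Its difference was 0.92 (SE 0.49, adjusted p = 0.566) and its slope 0.18 (SE 0.08, adjusted p = 0.336), neither of which passed. Tef, a PAR bZIP activator like Dbp, ran from 2.93 to 3.92 in high and from 1.34 to 3.92 in low livers and rose by 0.22 per unit (SE 0.03, adjusted p = 2.2e-04). Bhlhe40 (DEC1), a repressor at E-boxes, rose by 0.15 per unit (SE 0.03, adjusted p = 0.00537). Without NR_8, the liver of lowest score, the slopes of Per2 and Bhlhe40 missed the threshold (adjusted p = 0.0815 and 0.0751). Hlf, the last PAR bZIP gene, and Cry2 had differences of 0.24 and 0.18, and their slopes did not pass (adjusted p = 0.178 and 0.128).

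The measured genes on the list of ROR and REV-ERB targets (Nfil3, Clock and Cry1) had lower means in high livers, as Arntl had. Of these 3, Nfil3 alone held the element in the window searched. The list held Arntl and 4 others, 3 of which were measured. All 3 had a negative difference (median -0.62), against 48.6% of all genes. None passed the split, and 2 of the 3 fell with the score as a slope, against 1.96% of all genes passing in either direction. Npas2, a partner of ARNTL, was well above background on 2 arrays and did not pass the filter on dim probes.

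Nfil3, the repressor at D-boxes, ran from 1.01 to 2.70 in high livers with a median of 1.55. It ran from 1.76 to 3.39 in low livers with a median of 2.69, and NR_8, the liver of lowest score, had the highest value. Its difference was -0.98 (SE 0.22, adjusted p = 0.110) and its slope -0.22 per unit (SE 0.02, adjusted p = 2.3e-05). Clock, the partner of ARNTL, ran from -0.58 to -0.08 in high and from -0.33 to 0.70 in low livers. Its difference was -0.52 (SE 0.11, adjusted p = 0.0808) and its slope -0.11 (SE 0.01, adjusted p = 1.8e-04). Cry1, a repressor of ARNTL and CLOCK, had a difference of -0.62 (SE 0.41, adjusted p = 0.681), which was -0.01 in the first and -1.24 in the second slide series. Cry1 was well above background in 8 of 10 high and 9 of 10 low livers.

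**Figure D2:**
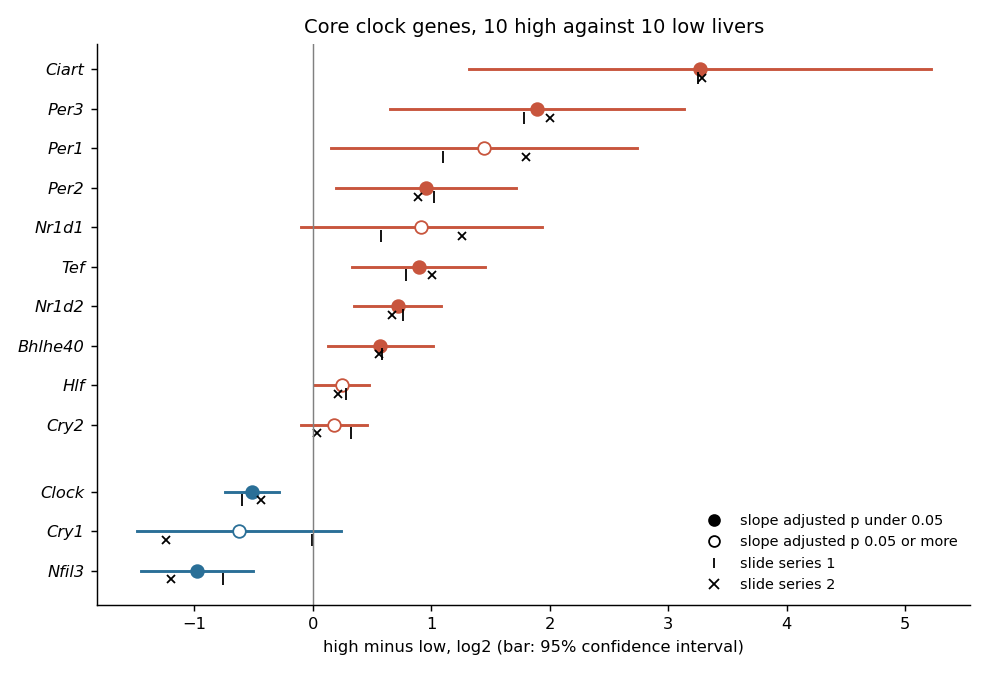
High minus low difference on the log2 scale of the 10 measured genes driven from E-boxes (upper block) and the 3 on the list of ROR and REV-ERB targets (lower block); bars are 95% confidence intervals, filled circles passed as a slope on the score, and ticks and crosses are the 2 slide series. Ciart is farthest right at 3.27 and Nfil3 farthest left at -0.98, and Cry1 is the gene whose 2 series lie farthest apart.

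Some livers that were neighbours in score were not alike in the other clock genes. The pairs below are neighbours within their slide series and were singled out after their values were seen, so no test is given. NR_1 and R_10 had scores of 5.29 and 4.99. Ciart was -0.14 in NR_1 and -4.26 in R_10, and Per1 was 0.96 and -2.78. Nr1d1 ran the other way, at -1.73 in NR_1 and 0.68 in R_10. R_6 and R_7, with scores of 4.29 and 3.14, showed the same contrast: Ciart was -0.54 and -4.21, Per1 was 1.15 and -3.37, and Nr1d1 was -1.67 and 0.03. Lpin1, a phosphatidate phosphatase with a strong daily rhythm in liver, was 4.80 in NR_1 against 1.64 in R_10, and 6.50 in R_6 against 1.74 in R_7. Gys2, the liver glycogen synthase, was 6.44 against 5.29 and 6.65 against 5.07 in the same pairs. The difference between high and low livers in Lpin1 was 0.57 (SE 0.68, adjusted p = 0.847) and that in Gys2 0.62 (SE 0.24, adjusted p = 0.374). A score of Dbp minus Arntl thus placed side by side livers that differed in Nr1d1, Per1 and Ciart.

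**Figure D3:**
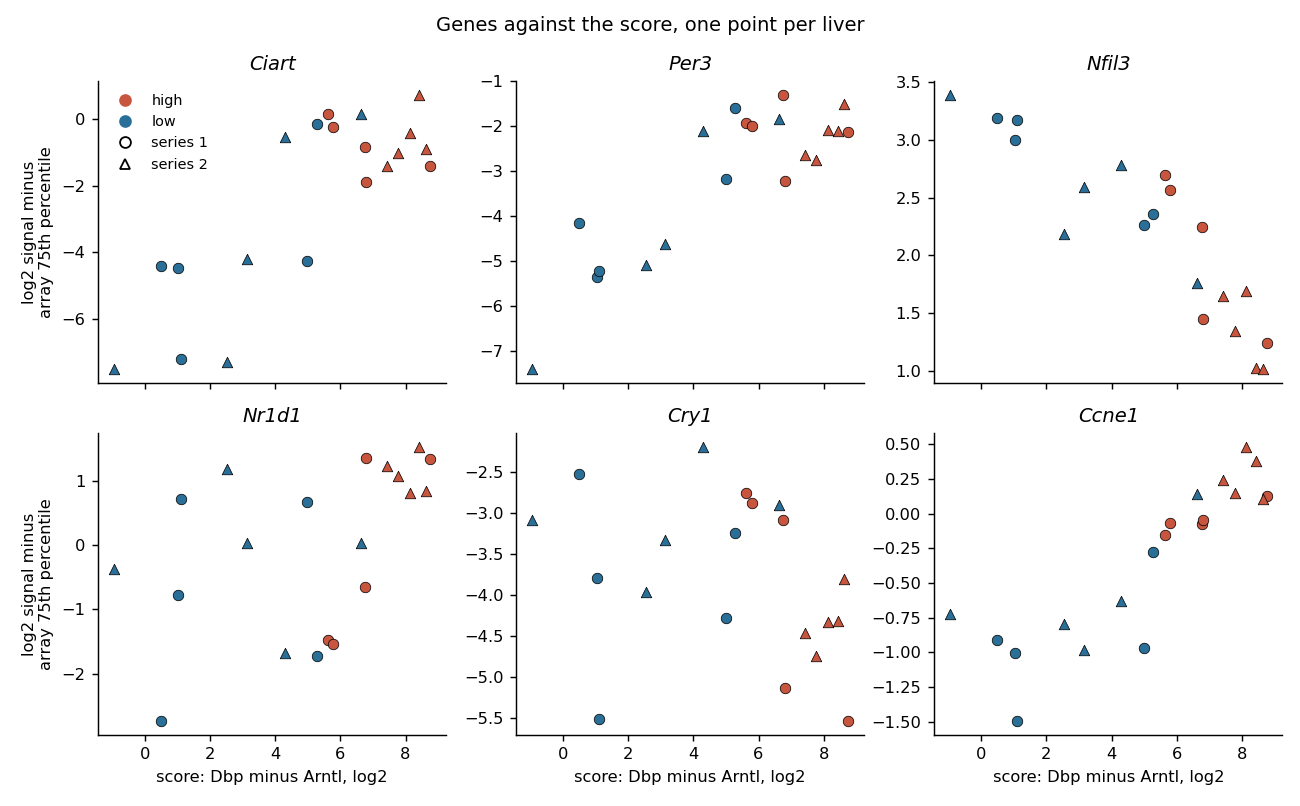
Level (log2 signal minus the array's 75th percentile) of Ciart, Per3, Nfil3, Nr1d1, Cry1 and Ccne1 against the score, with 1 point per liver, coloured by high and low and shaped by slide series. Nfil3 falls along the whole score, Ciart is near 0 in R_5, R_6 and NR_1 as in the high livers, and Nr1d1 is scattered between -2.74 and 1.53.

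Liver genes known for strong daily rhythms moved in both directions. Of the 26 measured, 16 were higher (61.5%, against 51.3% of all genes) and 10 lower in high livers (median 0.14). None passed the split, and 12 passed as a slope (46.15%, against 1.96% of all genes), 5 upwards and 7 downwards. This list and the clock lists above were chosen with earlier results of these data known, so their shares are descriptions and no independent test. Rgs16, a regulator of G protein signalling, ran from 2.60 to 5.18 in high and from -1.09 to 4.48 in low livers. Its difference was 2.20 (SE 0.63, adjusted p = 0.197) and its slope 0.49 (SE 0.08, adjusted p = 0.00307). Usp2, a deubiquitinase, ran from -0.61 to 2.01 in high and from -2.93 to 2.09 in low livers (slope 0.34, SE 0.09, adjusted p = 0.0464), and it missed the threshold in 14 of 20 fits with 1 liver left out. The other 3 that rose were Wee1, the kinase that holds back mitosis (slope 0.26, adjusted p = 0.00794), Coq10b, a coenzyme Q binding protein (0.23, adjusted p = 0.0174), and Cys1, a protein of the primary cilium (0.11, adjusted p = 0.0384). Wee1 was well above background in 5 high and 2 low livers. Cys1 missed the threshold in 9 of 20 fits with 1 liver left out, and Coq10b did without NR_8 (adjusted p = 0.104).

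Cdkn1a, which encodes the cell cycle inhibitor p21, was 3.92-fold higher in low livers. It ran from -3.11 to 1.14 in high and from -2.54 to 2.51 in low livers, and NR_3 was the highest of the high and R_10 the lowest of the low. Its difference was -1.97 (SE 0.57, adjusted p = 0.199) and its slope -0.43 (SE 0.08, adjusted p = 0.00471). Elovl3, an elongase of very long fatty acids, ran from 2.11 to 4.71 in high and from 2.61 to 6.11 in low livers (slope -0.33, SE 0.05, adjusted p = 0.0012). Leo1, a subunit of the PAF1 transcription complex, fell by 0.09 per unit (adjusted p = 7.0e-05). Mreg (slope -0.09, adjusted p = 0.0111), Ypel2 (-0.11, adjusted p = 0.0185), Lonrf3 (-0.21, adjusted p = 0.0256) and Dtx4 (-0.08, adjusted p = 0.0473) fell too. Dtx4 missed the threshold in 14 of 20 fits with 1 liver left out, and Lonrf3 did without NR_5, NR_6 or NR_8. Noct (nocturnin), an NADP(H) phosphatase, had a median of 2.13 in high livers, the lowest of which was at 0.66, and of 0.55 in low livers, which ran from -1.14 to 3.03, so that the groups overlapped, and its slope of 0.27 did not pass (adjusted p = 0.132).

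Outside the lists, the genes of smallest slope p were chosen after their values were seen. The smallest p belonged to an unnamed probe, A_52_P99082, whose annotation places it at chr15:80090787-80090846 of mm9. It ran from -1.44 to 0.27 in high and from -3.77 to -0.78 in low livers and rose by 0.40 per unit (SE 0.02, adjusted p = 7.2e-11). Lgalsl, a galectin-related protein, ran from 0.24 to 1.12 in high and from 0.97 to 2.37 in low livers and fell by 0.19 per unit (SE 0.01, adjusted p = 7.3e-08). Dnmt3b, a DNA methyltransferase, fell by 0.20 per unit (SE 0.02, adjusted p = 7.5e-07). Btg1, an antiproliferative factor, fell by 0.10 (SE 0.01, adjusted p = 1.8e-06). Chka, a choline kinase, ran from -0.46 to 0.72 in high and from -0.02 to 2.36 in low livers and fell by 0.27 (SE 0.03, adjusted p = 2.0e-05).

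Further genes that fell with the score were Lrfn3, Pnrc1, Mtnr1a and Clpx. Mtnr1a encodes a melatonin receptor; it ran from -2.28 to -1.38 in high and from -1.92 to -0.56 in low livers (slope -0.16, adjusted p = 8.7e-05). Clpx, the subunit of a mitochondrial protease that unfolds its substrates, ran from 3.36 to 4.21 in high and from 3.33 to 5.48 in low livers (slope -0.21, adjusted p = 1.3e-04). Among the genes that rose, Pcsk4, a proprotein convertase, ran from 0.45 to 1.27 in high and from -0.76 to 1.11 in low livers (slope 0.19, adjusted p = 2.5e-05). Fnip2, a partner of folliculin, rose by 0.14 per unit (adjusted p = 4.4e-04). No gene had all 10 high livers on one side of all 10 low livers (0%). High and low livers did not overlap for 0.913% of genes in the first slide series and for 1.63% in the second, and for 5 genes, 0.0291% of those tested, in both: Cpeb1, which binds polyadenylation elements, was higher in high livers (0.62, adjusted p = 0.058), and Pxmp4 (-0.70, adjusted p = 0.09), Nbeal2 (-0.36, adjusted p = 0.0808), St6galnac6 (-0.29, adjusted p = 0.108) and Pced1a (-0.24, adjusted p = 0.16) were lower.

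In each of the metabolic lists that follow, 1 or 2 genes passed as a slope, that is, 2.86% to 7.69% of a list against 1.96% of all genes, and the list medians lay between -0.12 and 0.15. In cholesterol synthesis and uptake, 1 of 24 measured genes passed as a slope. Insig2, which holds back the processing of SREBP factors, ran from 4.18 to 4.96 in high and from 4.67 to 6.19 in low livers (slope -0.20, SE 0.02, adjusted p = 3.9e-06). Insig2 thus fell with the score. Abcg5, which exports sterols into bile, was the gene of 17 in bile acid synthesis and transport that passed (slope 0.11, adjusted p = 0.00651). Cyp7a1, the rate-limiting enzyme of bile acid synthesis, had a difference of 0.79 (SE 0.38, adjusted p = 0.512).

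Cyp2a4 and Cyp2a5, P450 enzymes known as targets of PAR bZIP factors, were the 2 of 26 measured xenobiotic genes that passed. Cyp2a5 ran from 6.71 to 8.18 in high and from 5.44 to 8.08 in low livers, and rose by 0.23 per unit (SE 0.04, adjusted p = 0.005). Cyp2a4 rose by 0.22 per unit (SE 0.04, adjusted p = 0.00405). The 2 genes are near-identical copies, so the array may not tell their transcripts apart. Slc2a2, the glucose transporter GLUT2, was the 1 of 26 genes of gluconeogenesis, glycogen and amino acid breakdown that passed (slope 0.11, adjusted p = 0.00358). Pfkfb3, a regulator of glycolysis, had a difference of 0.77 (slope adjusted p = 0.0565).

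In fatty acid oxidation, 27 of 35 measured genes (77.1%) were lower in high livers, against 48.6% of all genes, with a median difference of -0.12, and 1 passed as a slope. Acot1, an acyl-CoA thioesterase, fell by 0.16 per unit (adjusted p = 0.0464), but missed the threshold in 15 of 20 fits with 1 liver left out. Ehhadh, a peroxisomal enzyme, had a difference of -0.61 (slope adjusted p = 0.0841). In fatty acid and triglyceride synthesis 1 of 22 passed: Agpat2, an acyltransferase, fell by 0.07 per unit (adjusted p = 0.0154). Elovl6 and Acaca, enzymes of fatty acid synthesis, had differences of 0.62 and 0.50 (slope adjusted p = 0.0619 and 0.146). Srebf1, the regulator of lipid synthesis, had a difference of 0.54 (slope adjusted p = 0.0601). In the cell cycle list 2 of 31 passed, Ccne1 upwards and the replication helicase gene Mcm7 downwards (slope -0.06, adjusted p = 0.0343), and Mcm7 missed the threshold in 7 of 20 fits with 1 liver left out. Among kinases, ligases and partners of clock proteins 1 of 22 passed: Crem, a cAMP response factor, fell by 0.08 per unit (adjusted p = 2.9e-04).

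**Figure D4:**
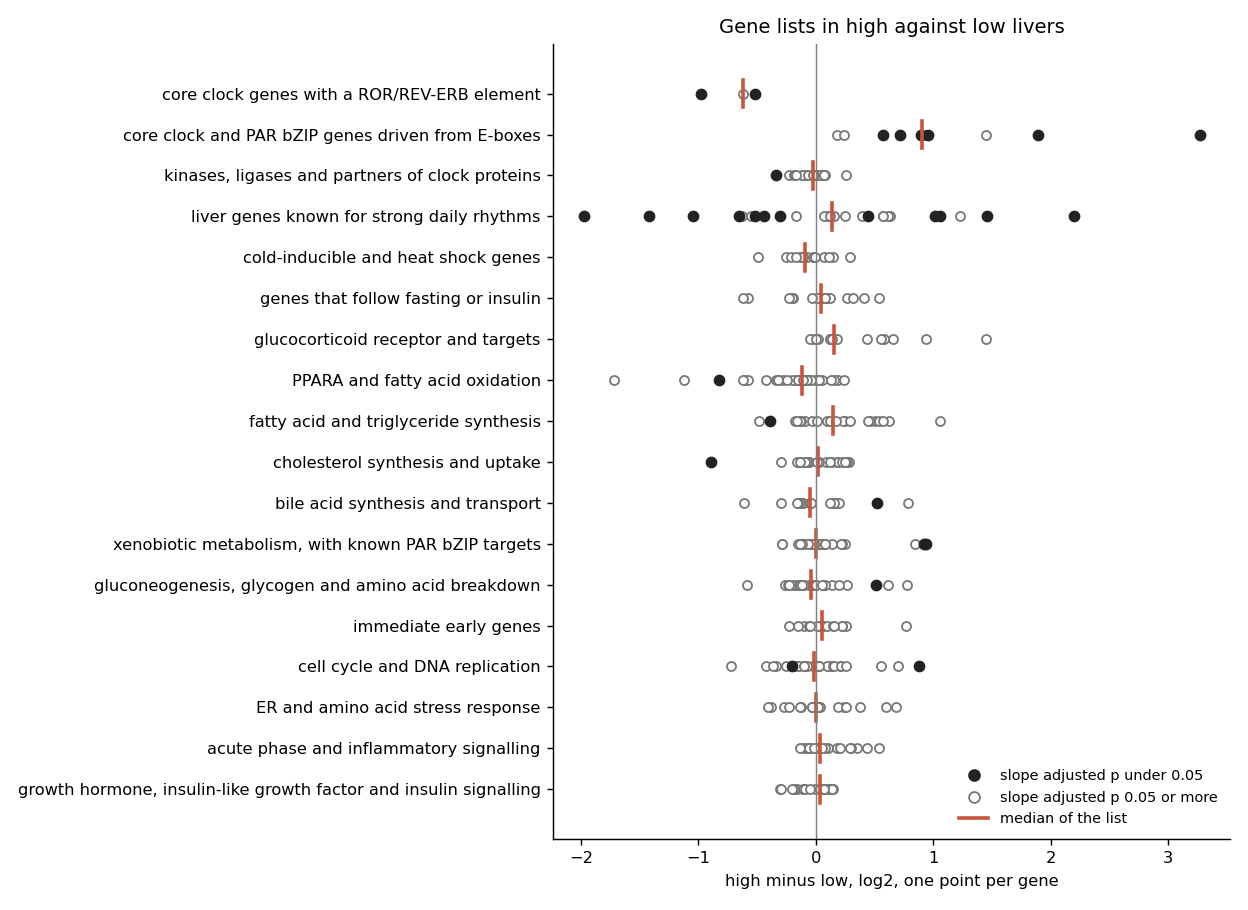
High minus low difference on the log2 scale of each measured gene of 18 lists, with 1 point per gene, filled where it passed as a slope on the score, and a bar at the list's median. The clock lists and the rhythmic liver genes hold most of the filled points, and the other medians lie between -0.12 and 0.16.

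Lists for other ways in which livers can differ held no gene that passed by split or slope. Of all genes 0.0174% passed by the split and 1.96% as a slope, so lists of this size would hold few such genes at that share. These were cold-inducible and heat shock genes (14 measured), genes that follow fasting or insulin (18), glucocorticoid targets (14), immediate early genes (18), the ER and amino acid stress response (18), the acute phase (20), and growth hormone and insulin signalling (23). Their medians lay between -0.09 and 0.16. Of the cold-inducible and heat shock genes 10 were lower in high livers and 4 higher. Higher in high livers were 11 of 14 glucocorticoid targets, 13 of 18 immediate early genes and 12 of 18 genes that follow fasting or insulin. The counts were 13 of 20 in the acute phase, 13 of 23 in growth hormone and insulin signalling and 9 of 18 in the stress response. The glucocorticoid targets include Per1, which is also on the list of genes driven from E-boxes and had the largest difference among them (1.45). Of all genes 51.3% were higher, and whether these lists differed from that share was not tested. The heat shock gene Hspb1 had a difference of -0.49 (SE 0.26, adjusted p = 0.562) and the cold-inducible gene Rbm3 one of 0.29 (SE 0.15, adjusted p = 0.564). Igfbp1, which insulin represses, ran from 3.83 to 7.31 in high and from 3.74 to 7.14 in low livers. Mt2, a metallothionein induced by glucocorticoids, had a difference of 0.93 (SE 0.57, adjusted p = 0.638), and Errfi1, an inhibitor of EGF receptor signalling, one of 0.55 (SE 0.26, adjusted p = 0.503). A miss of the threshold does not show that these genes were equal.

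Among markers of other cell types, 1 gene passed as a slope and none by the split, while several lists lay to one side. Of all genes 1.96% passed as a slope and 0.0174% by the split, so a count this low does not set these markers apart. Of the 7 adipocyte markers measured, 6 were higher in high livers (median difference 1.00), with a summed level of 2.51 to 5.14 in high and 2.77 to 4.39 in low livers, and none passed. With clock state as a term, all 7 were lower in responders (median -1.22). In that fit 8409 of all 17192 genes were higher in responders. Plin1 was well above background in 8 non-responders and 3 responders, so it passed the filter through the non-responders. Retn was well above background in 6 high and 2 low livers. The count of 7 is thus partly set by dim probes and by the filter. The high livers held 6 non-responders and the low livers 4. Adipoq, the fat cell hormone adiponectin, ran from -6.45 to -0.25 in high and from -5.22 to -1.37 in low livers, and Plin1, which coats fat droplets, from -6.99 to -2.12 and from -6.60 to -3.63. In whole liver, fewer cells of a type and less RNA per cell cannot be told apart. Sox9, a cholangiocyte marker, fell by 0.12 per unit of score (adjusted p = 0.0162; 0.0727 without NR_8), and the other 6 cholangiocyte markers did not pass. No member of the Kupffer cell (11 measured), endothelial (9), stellate cell (12), lymphocyte (10), neutrophil (4), red cell (3) or pancreatic acinar (16) lists passed, with list medians between -0.17 and 0.23. All 9 endothelial markers were lower in high livers (median -0.10), 10 of 12 stellate cell markers were higher (median 0.17), and all 4 neutrophil markers were higher (median 0.23), against 51.3% of all genes higher. Of the 16 acinar markers 13 were lower, with a median slope of -0.21 per unit of score. The acinar markers varied widely in both states, with a summed level of -0.09 to 9.28 in high and -0.64 to 9.31 in low livers. Whether any of these markers had a part in the results was not tested.

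The score did not differ detectably between responders and non-responders. Responders had scores from 1.10 to 8.76 with a median of 5.80, and non-responders from -0.96 to 8.64 with a median of 5.71. With slide series taken out, the responder minus non-responder difference was 0.23 (p = 0.866, exact two-sided permutation within slide series), and it was 1.24 in the first series alone and -0.76 in the second. The sign of this difference turned when R_1, R_2, NR_5, NR_6 or NR_8 was left out. The high livers were 6 non-responders and 4 responders, and the low livers 4 non-responders and 6 responders.

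With clock state as a term, no gene differed between responders and non-responders at an adjusted p under 0.05 (0% of 17192), and 1514 did at an unadjusted p under 0.05 (8.81%). Without clock state there were also 0, and 1372 at an unadjusted p under 0.05 (7.98%). With clock state, 1 gene passed when R_1, NR_1 or NR_10 was left out. The smallest adjusted p was 0.170 with and 0.272 without clock state.

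Arhgap26, a regulator of small GTPases, ran from -1.02 to 0.19 in responders and from -1.28 to -0.49 in non-responders. Its difference was 0.57 with clock state (SE 0.10, unadjusted p = 1.6e-05, adjusted p = 0.170) and 0.49 without (SE 0.13). Neu3, a sialidase, differed by -0.60 with clock state (SE 0.11) and by -0.49 without (SE 0.15). Mmp15, a membrane metalloproteinase, differed by 0.52 (SE 0.10) and by 0.46 (SE 0.12). Gna14, a G protein alpha subunit, ran from -0.22 to 0.77 in responders and from -2.19 to 0.27 in non-responders, and differed by 1.31 (SE 0.25) with and 1.22 (SE 0.26) without clock state. Setd7, a lysine methyltransferase, differed by -0.44 in both fits, and Fndc4, a secreted fibronectin domain protein, by 0.30 and 0.31.

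The genes of binding proteins for insulin-like growth factor differed by nearly the same amount in both fits. Igfbp1 ran from 3.74 to 6.52 in responders and from 5.27 to 7.31 in non-responders, with a difference of -1.61 (SE 0.36) with and -1.56 (SE 0.35) without clock state. Igfbp2 differed by -0.44 (SE 0.13) and -0.43 (SE 0.13). Dpp4, a dipeptidyl peptidase, differed by 0.16 (SE 0.07) and 0.15 (SE 0.07). Its difference was 0.33 (SE 0.09) among low livers and 0.02 (SE 0.09) among high livers. The interaction of clock state with label for Dpp4 was -0.31 (SE 0.12, limma unadjusted p = 0.0229, adjusted p = 0.995) and did not pass. Serpina12 (vaspin), an adipokine of the serpin family, differed by 0.75 (SE 0.16) and 0.73 (SE 0.16). Cidec, which enlarges fat droplets, differed by -1.24 (SE 0.37) and -1.16 (SE 0.36). None of these passed after adjustment over all genes.

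Plin1 was the named gene whose label difference was farthest apart between clock states. It was well above background in 8 non-responders and 3 responders, so it passed the filter through the non-responders, and its responder values lie mostly at background. Its responder minus non-responder difference was -2.55 (SE 0.49) among high livers and -0.30 (SE 0.51) among low livers. The test of that difference gave an interaction of -2.24 (SE 0.71, unadjusted p = 0.00557, adjusted p = 0.995), which did not pass. Over all genes, 0 passed the interaction of clock state with label (750 at an unadjusted p under 0.05, 4.36%) and 0 that of clock state with slide series (812, 4.72%). The smallest p of the first belonged to an unnamed probe, A_52_P1016836, placed by its annotation at chr12:58838729-58838785 of mm9. Its high minus low difference was -0.55 in non-responders and 0.49 in responders (interaction 1.04, SE 0.16, adjusted p = 0.102). The smallest adjusted p over all genes was 0.149 with quantile normalization and 0.985 on the authors' deposited values. Among named genes that are no clone names the smallest p belonged to Ovgp1 (0.85, SE 0.19), Ccnj (0.47, SE 0.12), Mab21l2 (1.42, SE 0.35) and Hpgd (-0.80, SE 0.20), each with an adjusted p of 0.995.

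**Figure D5:**
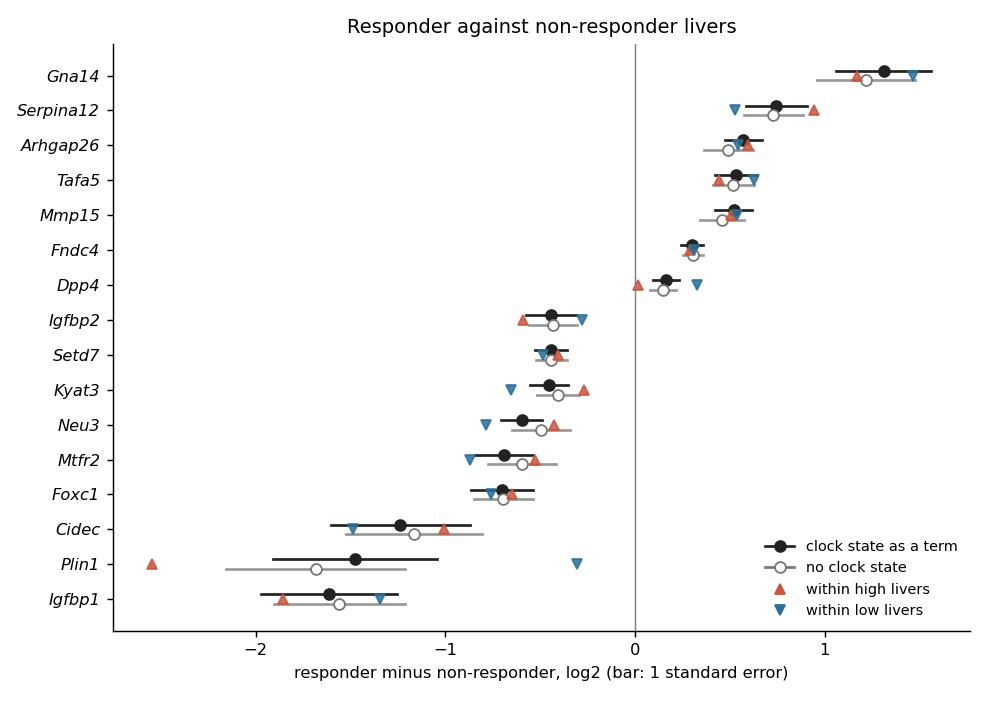
Responder minus non-responder difference on the log2 scale of 16 genes, with clock state as a term (filled circles), without it (open circles) and within high and within low livers (triangles); bars are 1 standard error. The 2 fits lie within 1 standard error of each other for every gene drawn, and Plin1 has its within-state values farthest apart, at -2.55 and -0.30.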

How the data were processed

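Total RNA from 20 livers was labelled with Cy3, and each liver was hybridised to its own single-colour Agilent array. The authors deposited linear spot intensities from the scanner; per the file headers these had been corrected for background and for spatial trend. The headers name Feature Extraction 10.5.1.1, whereas the submitters' processing notes name 9.1. A table of processed intensity deposited by the authors served as an alternative; its scaling is not stated in the labels.

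Controls and flagged outliers were dropped, and repeated spots were averaged. A level is the log2 processed signal less the array's 75th percentile. A probe was kept if well above background in 5 or more livers of a label group, which left 26160. The brightest probe stood for a gene; unnamed probes were kept as they were. The RefSeq gene table (GRCm38.p6) named 27479 probes through accessions, 5478 through symbols and 679 through earlier symbols; 867 kept the name on the array, and 6671 had no name. Probe positions are those of the array annotation (mm9). No column of the files was left without a sample.

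The test of high against low livers was limma's (version 3.58.1, run under R 4.3.3; lmFit and eBayes) with slide series as a term and Benjamini-Hochberg adjustment at 0.05. Dbp and Arntl stayed out of every test. The slope, responder and interaction fits used the same values and samples. Livers keep their side of the split when another is left out. The code was tested on simulated data.

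The members and gene lists were chosen with earlier results of these data known. Genes were named by rule: all measured clock genes, the called genes, and up to 4 members of smallest p in each list. For the label they were up to 6 of smallest p in each direction plus Igfbp1, Igfbp2, Dpp4, Plin1, Cidec and Setd7. Further genes, among them those of smallest slope p, were named after their values were seen. A few genes are not reported here and were left out of the lists, whatever their values, but they stayed in every fit.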

Additional observations from a re-analysis of the deposited data

How the results depend on the processing

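The count of 3 genes called by the split was 0 with normexp background correction, 0 without the filter on dim probes, 6 on the authors' deposited values, and 20 when every array had to be well above background. It was 20 with the mean of all probes of a gene, 1 without the slide series term, 11 with array weights, 17 with a trended robust variance and 13 with the responder label as a term. It was 0 in either slide series alone, 53 without the livers next to the boundary, 398 with Dbp alone as a slope, 230 with Arntl alone, 337 with the score as a slope, and 0 to 65 with 1 liver left out. The slope recomputed under the same settings was chosen after seeing the data. Its count of 337 was 24 with normexp, 162 without the filter, 224 without the slide series term, 20 in the first and 26 in the second slide series alone, and 140 to 357 with 1 liver left out. With 1 liver left out, 121 to 317 of the 337 genes were called again, and all 337 kept their sign. The 337 were picked on all 20 livers, most of which every refit shares, so the kept signs are no separate support.

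The labels do not say whether samples with the same number in their titles are paired. Of 10 same-numbered pairs 6 correlated above 0.1 (-0.226 to 0.588), and 3 of 10 responders correlated best with their own number. No reference was computed for these values, so they do not settle whether the samples were paired. With a replicate block the split called 0 genes and the slope 49, and the score difference was 0.23. Normexp, which left 3 arrays with a collapsed spread, moved 4 livers to the other side; quantile normalization and the deposited values moved 0.

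The difference in score between labels turned to -0.48 with normexp and was -0.76 in the second slide series, and lay between -0.68 and 0.74 with 1 liver left out. The responder count with clock state was 0 to 1 with 1 liver left out and 0 under every other setting run. Without clock state the count was 0 under every setting run, those with 1 liver left out among them. Normexp turned the label difference of Neu3 (0.0851), Mtfr2 (0.32), Dpp4 (-0.18), Plin1 (0.0745) and Foxc1 (0.36). It also turned the slopes of Hlf (-0.0041), Cry1 (0.0214), Ypel2 (0.0102) and Nbeal2 (0.0054). The split difference of Lpin1 was -0.074 in the second slide series alone. The cause of these changes was not tested. Signal over background limits Ciart, Per3, Cry1, Wee1, Adipoq, Plin1, Retn, Mtfr2, Foxc1, Tafa5 and Mab21l2, which were not well above background on every array.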
